A study of Mus musculus with 6 samples.

Results

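Histone lysine methyltransferases and demethylases, the enzymes that add methyl groups to lysines of histone tails and take them off again, were compared in bone marrow of mice from a pair of outcrosses. The members were the genes whose symbol begins with Kdm, Kmt or Setd and a digit, with 11 further symbols (Ezh1, Ezh2, Nsd1, Suv39h1, Suv39h2, Ehmt1, Ehmt2, Dot1l, Setdb1, Setdb2 and Ash1l) and without the Y-linked Kdm5d. They came to 42 genes, read by 116 probe sets, of 18193 genes and 45037 probe sets in all. No probe set with a single symbol was assigned to Suv39h1 or Ash1l, and these 2 genes were not analysed here.

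The groups were 3 arrays from adult female (AKR/J x FVB/NJ)F1 mice, called AKR F1, and 3 arrays from adult female (DBA/2J x FVB/NJ)F1 mice, called DBA F1. Every animal therefore carried 1 FVB/NJ genome beside 1 from AKR/J or DBA/2J, and no treatment other than the anaesthesia at euthanasia is recorded. The question was which genes differ between these genotypes in the basal state. The labels do not tie arrays to separate animals, and the p-values reflect how far these samples spread, which may be technical only.

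Methylation of histone H3 at lysine 4 (H3K4) marks active promoters and enhancers, and that of lysine 36 (H3K36) and lysine 79 (H3K79) marks transcribed genes. Methylation of H3 lysine 27 (H3K27) by Polycomb repressive complex PRC2, and of H3 lysine 9 (H3K9), accompanies silencing, and that of H4 lysine 20 (H4K20) serves chromatin compaction and the cell cycle. In marrow several of these enzymes are known as regulators of stem cells and of lineage choice, and some, such as Kmt2a, are recurrent targets of leukaemia mutations.

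Values are the deposited log2 expression values. A difference is the AKR F1 mean minus the DBA F1 mean on that scale, with its standard error (SE) from limma's fit, and the brightest probe set stands for each gene. A gene passed the test at an adjusted p below 0.05 over all 18193 genes. Of the 42 member genes, 16 passed, 10 higher and 6 lower in AKR F1, which is 38.1% of them. Over all genes 15.2% passed, 9.2% higher and 6.04% lower. Members were mostly well expressed, with 41 above the median probe set level, and among all genes above that level 22.3% passed. Above the upper quartile level lay 35 members, of which 16 passed (45.7%), against 25.8% of all genes there. The median difference was -0.01 over the members and 0.06 over all genes. The groups did not overlap in 24 of the 42 members (57.1%), against 36.7% of all genes and 47.3% of all genes above the median level. Above the upper quartile level this held for 20 of the 35 members (57.1%), near the 52.3% of all genes there.

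Markers of the main marrow lineages were strongly expressed in all arrays, with list means from 11.53 to 11.95 for erythroid cells and from 12.28 to 12.63 for mature neutrophils. Other measures also separated the groups. The mean of 14 skeletal muscle genes was 6.79 to 8.05 in AKR F1 and 8.71 to 11.46 in DBA F1, and 9 of these genes were lower in AKR F1. The 3' to 5' index, the mean excess of 3' over 5' control probe sets, was 1.25 to 2.03 in AKR F1 and 1.03 to 1.23 in DBA F1. Of 9 erythroid markers 4 were higher and none was lower, with list means of 11.91 to 11.95 in AKR F1 and 11.53 to 11.73 in DBA F1. Of 9 markers of monocytes and macrophages 4 were higher and none was lower. Of 10 T and NK cell markers 3 were higher and 1 lower, with list means of 6.95 to 7.02 in AKR F1 and 6.77 to 6.83 in DBA F1. Of 5 neutrophil precursor genes Elane was higher, by 0.82, and the list means were 12.34 to 12.52 against 11.79 to 12.28. The other 4 did not pass: Prtn3 differed by 0.52, Mpo by 0.34, Ms4a3 by 0.26 and Ctsg by -0.26. Of 9 B cell markers Cd79a was higher (1.32) and Ms4a1 (-0.99) and Ebf1 (-0.86) lower, and the list means overlapped. Of 9 mature neutrophil markers Itgam (-0.999) and Cxcr2 (-0.49) were lower and none was higher. Of these 9 neutrophil differences 5 were above 0, up to 0.53 in Mmp9, without passing, and 4 were below 0. The mature neutrophil list means overlapped, at 12.30 to 12.57 in AKR F1 and 12.28 to 12.63 in DBA F1. The part of these lists in the members' differences was not tested. Of 11 proliferation genes none passed in limma, with 4 at an unadjusted p under 0.05. In such bulk RNA, fewer cells of a type and less RNA per cell cannot be told apart. With the 3' to 5' index as a covariate none of the members passed in limma, with 16 at an unadjusted p under 0.05. With the muscle mean as a covariate 1 member, Kdm6b, passed. In both of these fits the 16 members called without a covariate kept their sign, while SEs were wider and few genes of any kind passed (21 and 69).

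**Figure D1:**
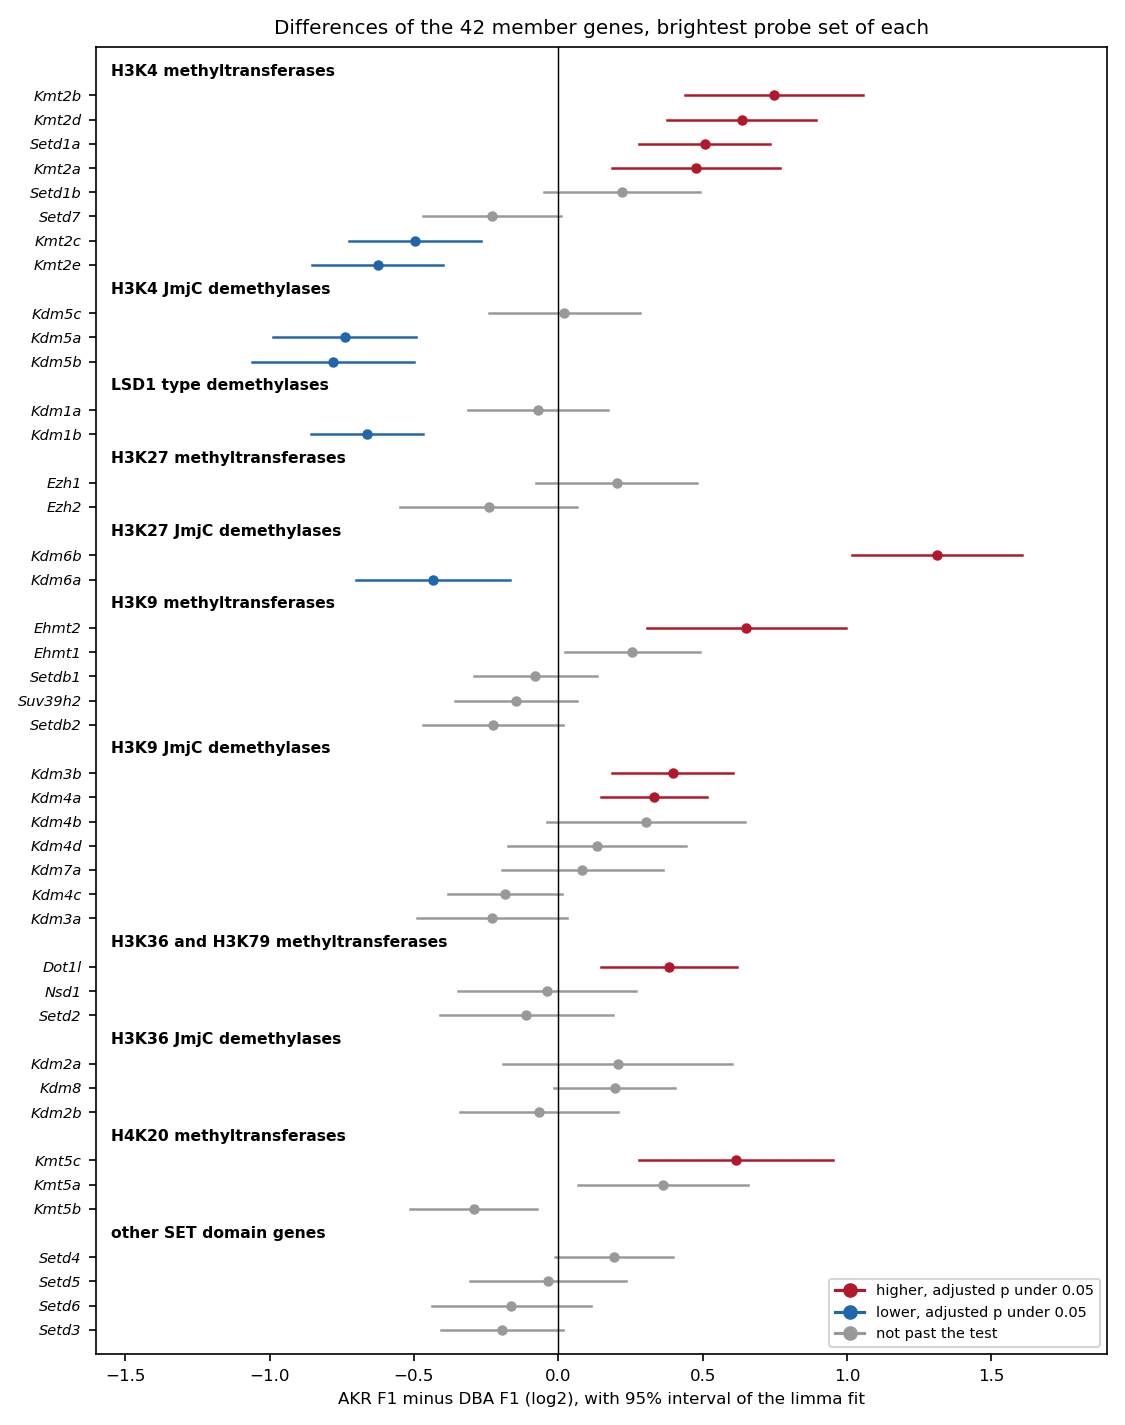
Difference between AKR F1 and DBA F1 (log2, x axis) of the 42 member genes, grouped by enzyme class. Most classes are named for a histone residue, and the others are LSD1 type demethylases and other SET domain genes. Points are limma estimates and lines their 95% intervals, red for the 10 higher, blue for the 6 lower and grey for the 26 that did not pass. The H3K4 methyltransferases lie on both sides of 0, and Kdm6b, at 1.31, is farthest to the right.

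Genes of the H3K4 enzymes and their relatives differed in both directions. The 8 genes grouped as H3K4 methyltransferases include Kmt2e by homology only. Of these 8, 4 were higher in AKR F1 (Kmt2b, Kmt2d, Setd1a and, at its brighter probe set only, Kmt2a), 2 were lower (Kmt2c and Kmt2e) and 2 did not pass (Setd1b and Setd7). Of the 5 demethylases that act on H3K4, 3 were lower at the brightest probe set (Kdm5a, Kdm5b and Kdm1b) and none was higher, and Kdm5c and Kdm1a did not pass. At dimmer probe sets, Kdm5c was higher at 2 and Kdm5a at 1. Over all genes 9.2% were higher and 6.04% lower.

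Sequences upstream of 4 of these H3K4 genes are shown because the genes differed in opposite directions: Setd1a and the brighter probe set of Kmt2a were higher and Kmt2c and Kdm5b lower in AKR F1. Each runs 5′ to 3′ and ends at the base before the annotated gene, from RefSeq's table on the GRCm38.p6 build of C57BL/6J, a strain not among the parents here. Capitals mark matches to the GC box GGGCGG that Sp and Klf factors bind, the ETS core CCGGAA, the CCAAT box, the E box CACGTG or the TATA box TATAAA, on either strand, and adjoining matches can run together.
Setd1a, chr7:127777139-127777388, plus strand: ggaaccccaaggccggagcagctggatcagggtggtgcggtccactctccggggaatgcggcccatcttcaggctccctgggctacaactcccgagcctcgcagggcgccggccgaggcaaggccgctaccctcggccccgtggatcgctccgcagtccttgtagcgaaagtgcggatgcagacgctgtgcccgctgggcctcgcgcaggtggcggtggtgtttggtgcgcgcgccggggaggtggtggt
Kmt2a, chr9:44881353-44881539, minus strand: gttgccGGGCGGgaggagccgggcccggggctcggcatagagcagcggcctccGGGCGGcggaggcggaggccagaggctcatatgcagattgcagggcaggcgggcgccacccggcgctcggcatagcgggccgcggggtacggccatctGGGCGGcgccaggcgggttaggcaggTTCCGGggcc
Kmt2c, chr5:25498856-25499033, minus strand: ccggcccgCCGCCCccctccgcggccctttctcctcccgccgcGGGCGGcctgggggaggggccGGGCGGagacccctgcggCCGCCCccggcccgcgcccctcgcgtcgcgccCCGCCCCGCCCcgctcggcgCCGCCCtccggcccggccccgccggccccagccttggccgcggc
Kdm5b, chr1:134559928-134560177, plus strand: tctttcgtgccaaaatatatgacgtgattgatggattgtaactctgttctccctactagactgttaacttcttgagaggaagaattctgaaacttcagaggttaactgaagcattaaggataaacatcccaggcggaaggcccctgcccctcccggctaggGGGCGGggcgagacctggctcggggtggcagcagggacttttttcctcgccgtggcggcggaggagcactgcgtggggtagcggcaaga

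These stretches differed in composition within both directions. The one of Setd1a held 25 CpG pairs in 250 bases and no match to the 5 motifs. That of Kmt2a held 23 CpG pairs in 187 bases, 3 GC boxes and 1 ETS core. The stretch of Kmt2c was 89.89% G or C, with 32 CpG pairs in 178 bases and 7 GC boxes, while that of Kdm5b had 13 CpG pairs in 250 bases and 1 GC box.

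RefSeq windows of 300 bases around the start were found for 33 of the 42 members, 44 windows in all, as some genes have several. They held a median of 28 CpG pairs, against 7 in all 32851 windows, and GGGCGG was present in 68.2% of them against 35.7%. CCGGAA was in 27.3% against 14.9%, CCAAT in 40.9% against 37.4%, CACGTG in 9.09% against 7.15%, and TATAAA in none of the 44 against 13.6%. Median CpG counts were 31.5 in the 8 windows of members higher in AKR F1 and 23.5 in the 4 windows of members lower. Of the 16 members past the test 11 had a window, and Kdm6b, Kmt2b, Kdm3b, Kdm5a and Kmt2e had none. Kmt2a is counted as higher here, by its brighter probe set. In these few windows CpG-rich starts were shared by members of either direction, and a match to letters is not evidence of binding.

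Among the higher H3K4 methyltransferases, Kmt2b, which methylates H3K4 at CpG-rich promoters, was at 9.24, 9.43 and 9.26 in AKR F1 and 8.77, 8.65 and 8.28 in DBA F1. All AKR F1 arrays lay above all DBA F1 arrays, and DBA F1 replicate 3 was lowest. This is a 1.68-fold difference (0.75, ± 0.14 SE, limma adjusted p = 0.012), lost without AKR F1 replicate 2. Kmt2d, which together with Kmt2c places H3K4 monomethylation at enhancers, was at 9.43, 9.76 and 9.65 against 9.10, 8.96 and 8.87. The groups were again apart, by 0.63 (± 0.11 SE, limma adjusted p = 0.011), a call lost without AKR F1 replicate 2 or 3. Its second probe set, with 0.17, did not pass. With the 3' to 5' index as a covariate the difference of Kmt2d was 0.36.

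Setd1a, the catalytic subunit of a complex that deposits most H3K4 trimethylation, was at 9.16, 9.32 and 9.19 in AKR F1 and at 8.84, 8.72 and 8.59 in DBA F1. The spread within each group was small beside the gap of 0.51 (± 0.10 SE, limma adjusted p = 0.015), but the call was lost without AKR F1 replicate 2 or 3. Its dim second probe set, with -0.25, did not pass. The paralogue Setd1b did not pass at its brightest probe set, with 8.77, 9.07 and 8.86 against 8.83, 8.69 and 8.51. These ranges overlapped, with a difference of 0.22 (95% interval -0.05 to 0.49). Its other probe set, however, was at 8.72, 9.03 and 8.84 against 8.06, 8.05 and 7.75. There the groups were well apart, by 0.91 (± 0.12 SE, limma adjusted p = 0.0057 among probe sets).

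Kmt2a, the MLL1 methyltransferase that sustains Hox gene expression in blood stem cells, gave opposite results at its 2 probe sets. The brighter, 1427283_at, was at 8.16, 8.57 and 8.54 in AKR F1 against 8.03, 7.99 and 7.82. AKR F1 replicate 1 lay nearest to the DBA F1 arrays. The difference of 0.48 (± 0.13 SE, limma adjusted p = 0.040) was lost without AKR F1 replicate 2 or 3 or DBA F1 replicate 2 or 3, and was 0.14 with the 3' to 5' index as a covariate. The other, 1452377_at, was at 7.05, 7.49 and 7.39 against 7.79, 7.71 and 7.86. Here every AKR F1 array was below every DBA F1 array, with a difference of -0.48 (adjusted p = 0.044 in limma over the probe sets). Averaged over both probe sets the difference was -0.00080, so no direction can be given for the gene.

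The 2 lower genes of the group, Kmt2c and Kmt2e, were read alike by several probe sets. Kmt2c was at 8.75, 8.97 and 9.001 in AKR F1 against 9.47, 9.43 and 9.31, a difference of -0.50 (± 0.10 SE, limma adjusted p = 0.017). The groups did not overlap, and the call was lost without AKR F1 replicate 1 or 2 or DBA F1 replicate 2. All 4 probe sets of Kmt2c were lower in AKR F1, by -0.39 to -0.87, and 3 of them passed. Kmt2e, a relative whose SET domain has no known H3K4 activity and whose PHD finger reads methylated H3K4, was at 9.46, 9.66 and 9.69 against 10.13, 10.31 and 10.25. The groups were clearly separate, by -0.63 (± 0.10 SE, limma adjusted p = 0.0083), and the call held in all 6 fits that left out 1 array. Of its 6 probe sets 3 passed, all lower, and the others differed by -0.04 to -0.36. Setd7, which can monomethylate H3K4 and has many other substrates, differed by -0.23 (95% interval -0.47 to 0.01) and did not pass.

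On the removal side, Kdm5a, a JmjC demethylase of trimethylated H3K4, was at 7.69, 7.71 and 8.005 in AKR F1 and 8.51, 8.62 and 8.49 in DBA F1. The DBA F1 arrays were tightly grouped above the others, with a difference of -0.74 (± 0.11 SE, limma adjusted p = 0.0066). A dimmer probe set, 1437106_at, was lower by a similar amount, -0.75. Another dim one, 1444842_at, went the other way, at 5.05, 5.14 and 5.16 against 4.42, 4.70 and 4.80 (difference 0.48, adjusted p = 0.032 in limma over the probe sets). Kmt2a and Kdm5a were the 2 of 30 members with several probe sets that had calls in both directions, as had 0.943% of such genes overall.

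Kdm5b, a close relative of Kdm5a with the same substrate, was at 7.25, 6.86 and 6.89 against 7.85, 7.68 and 7.82. All DBA F1 arrays were above all AKR F1 arrays, with a difference of -0.78 (± 0.12 SE, limma adjusted p = 0.0082). The remaining 3 probe sets of Kdm5b were dimmer and differed by -0.10 to 0.10, so the call rests on 1 probe set. The difference was -0.50 with the 3' to 5' index as a covariate. Kdm1b, the flavin-dependent demethylase LSD2, has a single probe set, at 7.23, 7.17 and 7.20 against 7.80, 7.84 and 7.94. It was the most even of the lower genes, with SDs of 0.03 and 0.07 around a difference of -0.66 (± 0.08 SE, limma adjusted p = 0.0042). The calls of Kdm5a, Kdm5b and Kdm1b held in all 6 fits that left out 1 array. Averaged over their probe sets, Kdm5a differed by -0.32 and Kdm5b by -0.19 and neither passed (limma adjusted p = 0.12 and 0.13), and at its most variable probe set Kdm5a did not pass either (-0.76, limma adjusted p = 0.11).

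The X-linked Kdm5c, which is known to escape X inactivation, did not pass at its brightest probe set, at 8.42, 8.46 and 8.47 against 8.22, 8.63 and 8.44. These values overlapped fully, with a difference of 0.02 (95% interval -0.24 to 0.28). Of its 9 probe sets, the most of any member, 2 were higher. The larger of these, 1426497_at, was at 6.07, 6.22 and 5.99 against 5.26, 5.21 and 4.72, a gap of 1.03 (± 0.15 SE, limma adjusted p = 0.0071 among probe sets). A further probe set, 1457930_at, differed by -0.68 without passing (adjusted p = 0.060 in limma over the probe sets). Kdm1a, the LSD1 demethylase that works with Gfi1 and Gfi1b in blood cells, differed by -0.07 (95% interval -0.31 to 0.17).

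**Figure D2:**
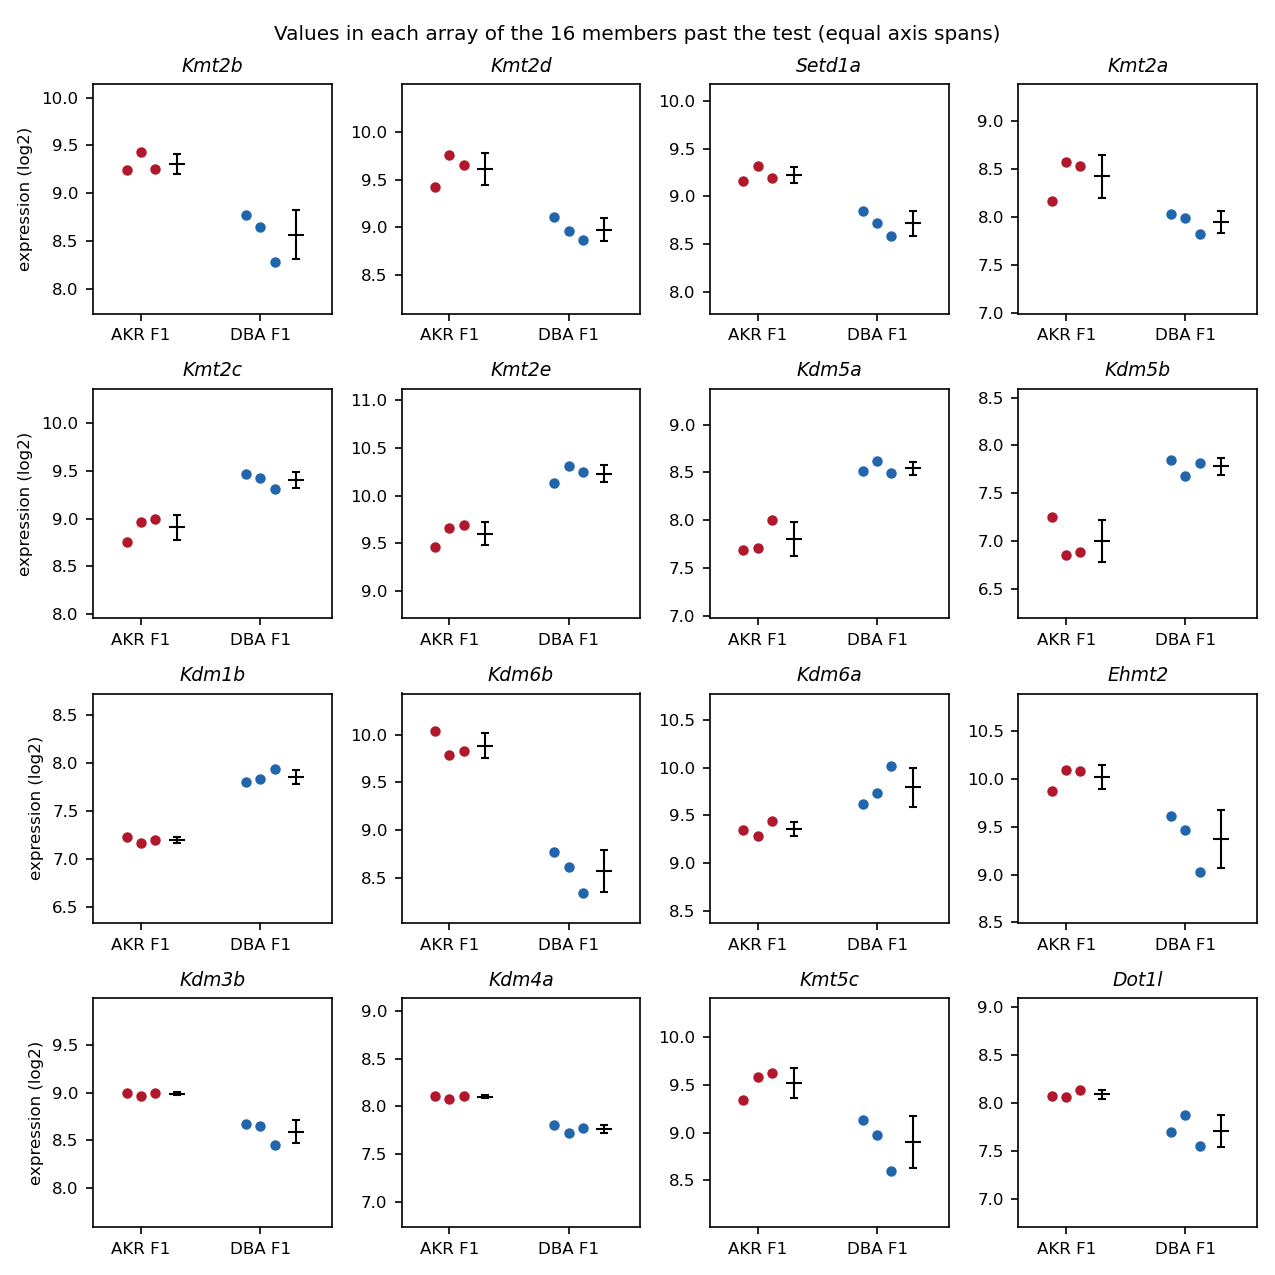
Expression (log2, y axis) in each of the 3 AKR F1 (red) and 3 DBA F1 (blue) arrays for the 16 members past the test, with the mean and SD in black and the same axis span in every panel. No panel shows overlap between the groups. The widest gap is in Kdm6b, from 9.79 in AKR F1 to 8.77 in DBA F1.

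The 2 Kdm6 genes, which encode demethylases of H3K27, differed in opposite directions. Kdm6b, the JMJD3 demethylase that inflammatory stimuli induce in macrophages, was at 10.04, 9.79 and 9.83 in AKR F1 and 8.77, 8.61 and 8.34 in DBA F1. It was the 1 member past the test that differed by 2-fold or more: it was 2.48-fold higher in AKR F1 (1.31, ± 0.13 SE, limma adjusted p = 0.0018), in all 6 fits that left out 1 array. A second probe set, 1442643_at, was higher too, by 0.57 (adjusted p = 0.038 in limma over the probe sets). The remaining one, 1447612_x_at, whose suffix marks probes that can bind other transcripts, was at 8.31, 8.59 and 8.34 against 8.64, 8.36 and 8.29, with the groups intermingled. Of the 9 monocyte and macrophage markers C1qa, C1qb, C1qc and Marco were also higher, by 0.65 to 0.95. The other 5 did not pass: Cd68 differed by 0.41, Csf1r by 0.097, Adgre1 by 0.020, Cx3cr1 by -0.0045 and Ccr2 by -0.50, with no overlap in Ccr2. The monocyte and macrophage list mean was 8.83 to 9.18 in AKR F1 and 8.55 to 8.79 in DBA F1. Their part in the difference of Kdm6b was not tested.

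Kdm6a, the X-linked paralogue UTX that also escapes X inactivation, was lower, at 9.35, 9.29 and 9.44 against 9.62, 9.74 and 10.02. The groups did not overlap, and DBA F1 replicate 3 stood highest. The difference was -0.43 (± 0.12 SE, limma adjusted p = 0.041), which held without DBA F1 replicate 1 but with no other array left out. All 4 probe sets of Kdm6a were lower, by -0.08 to -0.98, though only the brightest passed. Neither PRC2 methyltransferase gene passed, and at the brightest probe set neither reached an unadjusted p of 0.05 in limma. Ezh2, abundant in dividing progenitors, was at 10.42, 10.76 and 10.95 against 10.91, 11.00 and 10.95, a difference of -0.24 (95% interval -0.55 to 0.06). Ezh1, its relative in resting cells, differed by 0.20 (95% interval -0.08 to 0.48).

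Among the H3K9 methyltransferases 1 of 5 passed (20%), beside 15.2% of all genes and 22.3% of genes above the median level. Ehmt2, the G9a enzyme of H3K9 mono- and dimethylation, was at 9.88, 10.09 and 10.09 in AKR F1 and 9.61, 9.47 and 9.03 in DBA F1. The DBA F1 arrays were widely spread but all lower, and the difference was 0.65 (± 0.15 SE, limma adjusted p = 0.025). Leaving out AKR F1 replicate 1, 2 or 3 or DBA F1 replicate 2 ended the call, and the difference was 0.40 with the 3' to 5' index as a covariate. Ehmt1, its partner GLP in the same heterodimer, differed by 0.26 (95% interval 0.02 to 0.49) and did not pass after adjustment (adjusted p = 0.13 in limma). Setdb1, which Trim28 brings to retroelements, differed by -0.08 and Setdb2 by -0.23, without passing. Suv39h2, of the pair that trimethylates heterochromatin, differed by -0.15 at its brightest probe set, with 5.79, 5.71 and 5.73 against 5.85, 6.02 and 5.80. A dimmer one, 1422979_at, passed, with 4.67, 4.15 and 4.55 against 4.91, 5.15 and 4.99 (difference -0.56, adjusted p = 0.039 in limma over the probe sets).

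At their brightest probe sets the H3K9 demethylases had 2 of 7 members higher and none lower, beside 9.2% and 6.04% of all genes. Kdm3b, a demethylase of mono- and dimethylated H3K9, was at 8.998, 8.97 and 8.999 against 8.67, 8.65 and 8.46. The AKR F1 arrays were nearly equal and all higher, by 0.40 (± 0.09 SE, limma adjusted p = 0.025). Kdm4a, which removes trimethylation from H3K9 and H3K36, was at 8.11, 8.08 and 8.11 against 7.81, 7.72 and 7.77. Its difference of 0.33 (± 0.08 SE, limma adjusted p = 0.029) was the smallest that passed and stood beside SDs of 0.02 and 0.04. Leaving out AKR F1 replicate 1, 2 or 3 or DBA F1 replicate 2 ended both calls. Kdm3a (-0.23), Kdm4b (0.30) and Kdm4c (-0.18) did not pass, and Kdm4d, at 3.31 to 3.82 in the 6 arrays, lay near the floor.

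Kdm7a, which demethylates H3K9 and H3K27, showed how far a result can turn on the probe set. Its brightest, 1435867_at, was at 10.38, 10.31 and 10.31 in AKR F1 against 10.30, 10.00 and 10.46, a difference of 0.08 (95% interval -0.20 to 0.36). The next, 1456150_at, was at 9.97, 9.77 and 10.04 against 10.47, 10.40 and 10.54, with the groups apart by -0.55 (± 0.10 SE, limma adjusted p = 0.015 among probe sets). Another, 1427359_at, was at 8.11, 7.23 and 7.58 against 8.94, 8.71 and 9.14. That gap of -1.29 (± 0.21 SE, limma adjusted p = 0.0098 among probe sets) was the largest fall of any member probe set. The mean of its 5 probe sets was lower, by -0.37 (adjusted p = 0.029 in limma on gene means).

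Of the H3K36 and H3K79 methyltransferases only Dot1l, the H3K79 enzyme and the member without a SET domain in this class, passed. It was at 8.07, 8.06 and 8.14 against 7.69, 7.88 and 7.55. The groups were apart by 0.38 (± 0.10 SE, limma adjusted p = 0.041), a call that held without DBA F1 replicate 2 but with no other array left out. A second probe set differed by -0.09 without passing. Setd2, the enzyme of H3K36 trimethylation, differed by -0.11 (95% interval -0.41 to 0.19) and Nsd1, of H3K36 dimethylation, by -0.04 (95% interval -0.35 to 0.27). None of Kdm2a, Kdm2b and Kdm8, listed with H3K36 demethylation, passed in limma, and at the brightest probe set none had an unadjusted p under 0.05. They differed by 0.21, -0.07 and 0.20. Of the 7 probe sets of Kdm2a 5 had differences above 0. One of these, 1435329_at, differed by 0.30 without overlap and did not pass (adjusted p = 0.058 in limma over the probe sets).

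The 3 H4K20 genes were split. Kmt5c, which makes di- and trimethylated H4K20, was at 9.34, 9.58 and 9.63 in AKR F1 and 9.13, 8.97 and 8.60 in DBA F1. The groups did not overlap, with a difference of 0.62 (± 0.15 SE, limma adjusted p = 0.028). This call was lost without AKR F1 replicate 2 or 3 or DBA F1 replicate 2, and the difference was 0.34 with the 3' to 5' index as a covariate. Its paralogue Kmt5b went the other way without passing, at 7.80, 7.99 and 7.84 against 8.29, 8.11 and 8.12 (difference -0.29, adjusted p = 0.076 in limma). Another of its probe sets, 1455171_at, was very even, at 6.89, 7.02 and 6.96 against 7.59, 7.56 and 7.59, and was lower by -0.62 (± 0.08 SE, limma adjusted p = 0.0056 among probe sets). Kmt5a, the H4K20 monomethylase of dividing cells, differed by 0.36 with overlapping arrays (adjusted p = 0.093 in limma). A nearly as bright probe set, 1460687_at, differed by 0.47 without overlap (adjusted p = 0.062 in limma over the probe sets). Its dim probe sets differed by -0.64 and -0.29, and none of these passed.

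Of the 4 other SET genes none passed in limma, and at the brightest probe set none had an unadjusted p under 0.05. Setd3, which methylates a histidine of actin and not a histone, differed by -0.20, Setd6, which methylates the NF-kappaB subunit RelA, by -0.16, Setd5 by -0.04 and Setd4 by 0.19. The 26 members that did not pass lay between -0.29 and 0.36. In 8 of these 26 the groups did not overlap, beside 36.7% of all genes, called ones included.

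Members were also read probe set by probe set. Of the 116 probe sets 31 passed, 15 higher and 16 lower (26.7%). Over all probe sets 12.3% passed, 5.57% higher and 6.73% lower. Of the 81 member probe sets above the median level 28 passed (34.6%), against 21.1% of all at that level. In 53 of the 116 (45.7%) the groups did not overlap, against 33% of all. Above the median level this held for 46 of the 81 (56.8%), against 46.8% of all. Of the 30 members with several probe sets, 17 had differences of both signs (56.7%), against 47.2% of all genes with several. In 12 members a single probe set is all there is, among them Kdm1b, Kmt2b and Kmt5c. With the probe sets of each gene averaged, 8 of the 16 calls were kept: Kdm6b (0.62), Kdm1b, Kmt2b, Kmt2c, Kmt2d (0.40), Kmt2e (-0.42), Ehmt2 (0.46) and Kmt5c. Besides Kmt2a, Kdm5a and Kdm5b, the calls of Kdm6a (-0.44), Dot1l (0.14), Setd1a (0.13), Kdm3b (0.22) and Kdm4a (0.19) were lost, and Setd1b passed (0.57). Strain variants at the probed bases were not analysed here, and a difference seen by 1 probe set alone may not be one of transcript level.

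**Figure D3:**
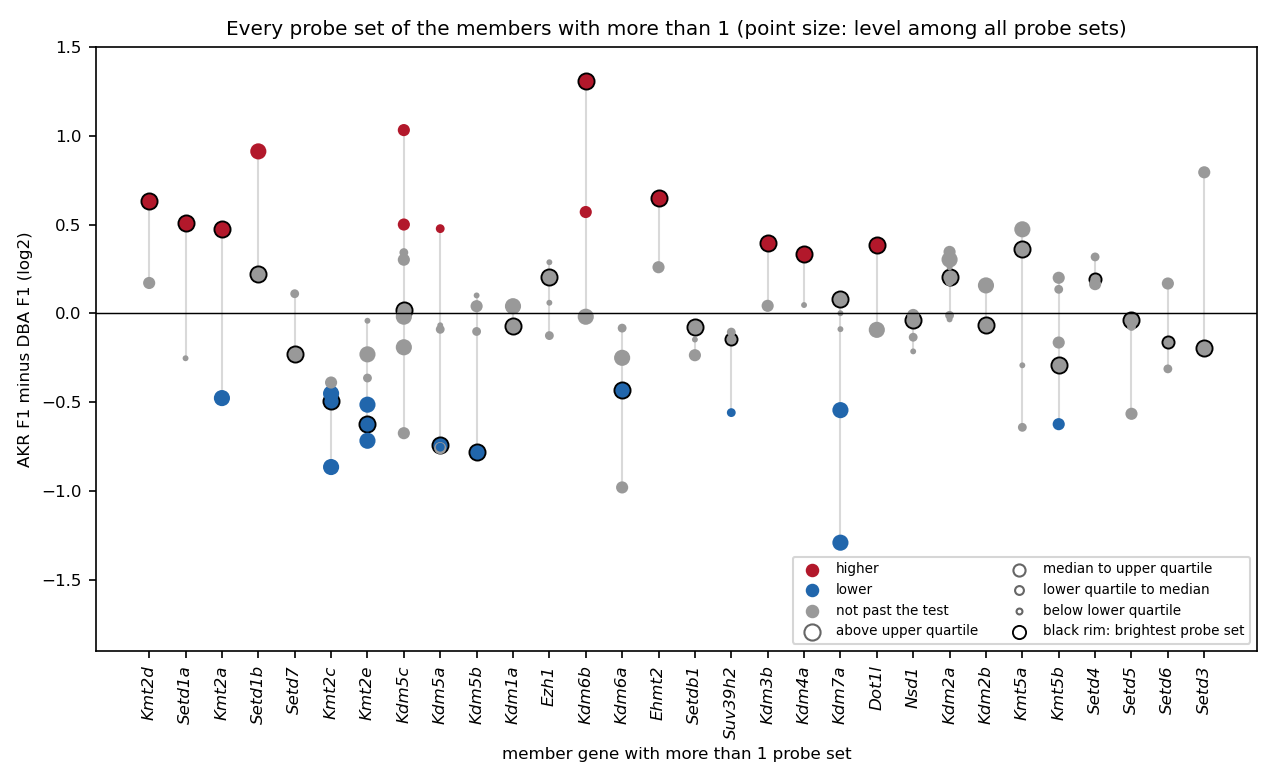
Difference between AKR F1 and DBA F1 (log2, y axis) at every probe set of the 30 members with more than 1. Red and blue points passed the probe set test, point size gives the level among all probe sets, and a black rim marks the brightest of each gene. Kmt2c and Kmt2e lie wholly below 0, while Kmt2a, Kdm5a, Kdm5c and Kdm7a spread to both sides.

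The number of members past the test depended on single arrays of both groups. It was 10 without AKR F1 replicate 1, 5 without replicate 2 and 7 without replicate 3, and 16, 9 and 13 without DBA F1 replicates 1, 2 and 3. The count over all genes moved too: of 2771, leaving out the AKR F1 arrays in the same order gave 1396, 685 and 793, and leaving out those of DBA F1 gave 3248, 1585 and 2147. The 5 left without AKR F1 replicate 2 were Kdm6b, Kdm1b, Kdm5a, Kdm5b and Kmt2e. All 16 kept their sign in each of these 6 fits. Without DBA F1 replicate 1, the array with the highest muscle mean (11.46), 15 of the 16 passed. At the stricter threshold of 0.01 the count was 5, and against a 1.2-fold change it was 2, Kdm6b and Kdm1b.

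**Figure D4:**
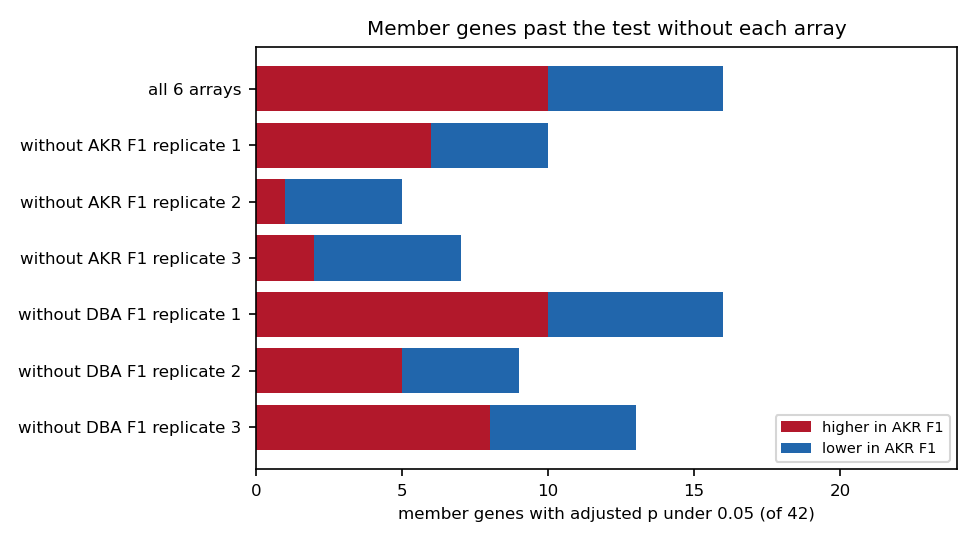
Number of the 42 members past the test (x axis) with all 6 arrays and without each array in turn, higher in AKR F1 in red and lower in blue. The count of 16 falls to 5 without AKR F1 replicate 2, of which 1 is higher, and stays at 16 without DBA F1 replicate 1.

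The proteins that work with these enzymes were followed through 80 partner genes, of which 19 passed (23.8%), 9 higher and 10 lower. This share stands beside 15.2% of all genes and 22.3% of genes above the median level. Their median difference was 0.02. In PRC2, the H3K27 complex around Ezh1 and Ezh2, 3 of 9 further genes passed. The core subunit Suz12 was at 10.18 ± 0.13 against 10.65 ± 0.20 (mean ± SD, n = 3 each; adjusted p = 0.037 in limma), and the accessory subunits Mtf2 and Phf1 differed by -0.50 and 0.52. In PRC1, which binds and ubiquitinates Polycomb targets, 4 of 15 passed. The ligase subunit Rnf2 (-0.51) and its partner Bmi1 (-0.41) were lower, and the chromodomain genes Cbx6 (0.48) and Cbx7 (0.39) higher. The other 11 did not pass, among them Ring1 (0.52) and Pcgf2 (0.35), both without overlap. Of the 15 differences 12 were above 0, with a median of 0.26.

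Shared subunits of the Kmt2 and Setd1 complexes had 2 of 14 genes lower (14.3%, beside 15.2% of all genes) and none higher, which were Hcfc2 (-0.52) and the coactivator Ncoa6 (-0.32). The core subunits Wdr5, Rbbp5, Ash2l and Dpy30 differed by 0.10, -0.12, -0.06 and 0.02, and none of them passed. Around LSD1, 3 of 9 passed: Gfi1b, the repressor that recruits LSD1 in red cell and platelet precursors, was at 10.11 ± 0.08 against 9.48 ± 0.10 (n = 3 each; adjusted p = 0.0070 in limma), Hmg20b differed by 0.72 and the deacetylase Hdac2 by -0.33. Of the 9 erythroid markers Tspo2, Gata1, Epor and Alas2 were higher, by 0.65, 0.68, 0.66 and 0.35. The other 5 did not pass: Slc4a1 differed by 0.31, Klf1 by 0.21, Ermap by 0.054, Hemgn by -0.084 and Tfrc by -0.12, with no overlap in Slc4a1. The part of these markers in the value of Gfi1b was not tested.

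Of 8 partners of DOT1L and the elongation machinery, Mllt1 (ENL) was higher by 0.70 (adjusted p = 0.0041 in limma) and Aff4 lower by -0.48. Among 8 partners of H3K9 silencing, Wiz, a zinc finger protein of the G9a complex, was higher by 0.43 and Morc2a by 0.38. Of 18 related enzymes outside the member rule, the JmjC gene Jmjd1c (-0.61) and the PR domain gene Prdm2 (-0.48) were lower and Smyd5 (0.50) was higher. That is 16.7% of this list, and 25% passed in each list of 8. These shares stand beside 15.2% of all genes and 22.3% of genes above the median level. Without AKR F1 replicates 1, 2 and 3 the partner count of 19 became 11, 3 and 6, and without DBA F1 replicate 2 it became 10.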

How the data were processed

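Total RNA of snap-frozen marrow was extracted with Trizol, biotin labelled and hybridised to Affymetrix arrays, per the labels' protocols. Probe set values were used as deposited, on a log2 scale and already normalized between arrays by the authors. The array medians lay between 5.14 and 5.19, and the number of arrays limits the precision. RMA and MAS5 are listed in the submitters' processing notes, without a role. Neither the choice between them nor scan batches are given in the sources used here.

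After 64 control probe sets were left out, limma 3.58.1 (R 4.3.3) with empirical Bayes moderation and Benjamini-Hochberg adjustment compared the groups over all 6 arrays, 4 residual degrees of freedom, two-sided. It was run on 45037 probe sets and on the brightest single-symbol probe set of 18193 genes, and was checked on simulated data. Symbols came from the platform annotation, and promoter windows were matched by gene ID. Values in every array are given for members past the gene test, and for members with a probe set past the probe set test or a difference of at least 0.4. Up to 4 called genes of each partner list are named. The members, lists and alternatives were chosen with earlier results of these data known.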

Additional observations from a re-analysis of the deposited data

How the results depend on the processing

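Quantile normalization, median centring, filters at the median or lower quartile, robust estimation with a variance trend, array weights and the probe set with the largest variance each left the counts of called genes, members, partners, probe sets and member probe sets within 1.5 times their value, where the setting applies. Leaving out 1 array gave 685 to 3248 genes, 5 to 16 members, 3 to 25 partners, 1683 to 5581 probe sets and 11 to 29 member probe sets. At a threshold of 0.01 these were 526, 5, 3, 1214 and 9, against a 1.2-fold change 237, 2, 1, 901 and 5, with the 3' to 5' index as a covariate 21, 0, 0, 112 and 0 (2645, 16, 17, 6169 and 33 at an unadjusted p under 0.05 in limma), and with the muscle mean 69, 1, 0, 102 and 0 (3727, 17, 25, 7884 and 35). At a threshold of 0.10 there were 4243 genes, 29 partners and 8489 probe sets. With probe sets averaged per gene 10 members passed, 8 of them among the 16.

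Differences that turned in sign were those of Kdm5c (-0.069 with array weights, -0.29 with the muscle covariate, and -0.085 without DBA F1 replicate 1, in a range of -0.085 to 0.12 over the arrays left out), Kdm7a (-0.37 with the mean of its probe sets, -1.29 at the most variable, and -0.043 without DBA F1 replicate 2, in a range of -0.043 to 0.19), Setd1b (-0.023 with the 3' to 5' index) and Kmt2a (-0.00080 with the mean of its probe sets). The cause was not tested, other than that the probe set summaries read other probe sets. With the replicate number as a block 2357 genes, 13 members, 17 partners, 5321 probe sets and 26 member probe sets passed. Deviations of arrays with the same number correlated at 0.0058, -0.060 and 0.073 across genes, so the numbers were not taken to pair the arrays.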

Other observations

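The 42 members lie on 20 chromosomes. On chromosome 7, 3 of 4 members were higher in AKR F1 (Kmt2b, Setd1a and Kmt5c) and none was lower, and the fourth, Kdm8, differed by 0.20 without passing. On chromosome 5, 2 of 5 were lower (Kmt2c and Kmt2e) and none was higher. Chromosome 6 also held 5 members, of which 1, Kdm5a, was lower. These are counts over few genes, given without a test. Over all genes 9.2% were higher and 6.04% lower, and the shares among all genes of each chromosome are not given here.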
